A study of Mus musculus with 11 samples.

Results

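Apoe, genes of lipoprotein transfer, uptake and cholesterol efflux, and genes of the adipocyte programme were followed through RNA sequencing of cells sorted from mouse bone marrow. The set holds 10 genes, chosen by name (Apoe, Lpl, Lrp1, Pltp, Abca1, Abcg1, Cd36, Fabp4, Pparg and Trem2), out of 16576 genes listed in any of the 3 deposited tables. All 10 were listed and passed the filter on low counts in the table of adult against perinatal cells (age table). Trem2 is listed in that table alone, and the other 9 were listed and passed in the table of labelled Sca1-negative against labelled Sca1-positive cells (Sca1 table) and in the table of Igf1r knockout against control cells (knockout table).

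The 11 samples formed 4 groups of polyA RNA from bone marrow, all sorted for the surface receptor PDGFRa. Adult wild-type cells gated as PDGFRa+CD51+ gave 3 samples and IGF1R knockout cells gated as PDGFRa+Sca1+ gave 3. Perinatal wild-type cells gave 2 samples from the PDGFRa+Sca1- gate (replicates 2 and 3) and 3 from the PDGFRa+Sca1+ gate. The labels call the perinatal cells postnatal, give no age for the knockouts and name no Cre driver. By title the knockouts carried Cre and the labelled Sca1-positive wild types did not, so Cre and the deletion cannot be told apart. CD51 is encoded by Itgav, Sca1 by Ly6a, and Igf1r encodes a receptor of insulin-like growth factors. Whether the samples came from different animals is not labelled, and the p-values reflect only how these samples vary, which may be technical.

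Apolipoprotein E is a secreted protein that lets lipoprotein particles bind their receptors on cells. Cells that take up much lipid export cholesterol through the transporters ABCA1 and ABCG1 onto such acceptors, and these genes are known targets of the sterol-sensing LXR nuclear receptors. PPARgamma is the nuclear receptor that drives adipocyte formation, and in bone marrow both stromal adipocyte precursors and macrophages handle lipid with overlapping sets of genes.

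The promoters of Apoe, Abca1 and Pltp are shown because these are reported LXR targets and their transcripts had the largest differences with age among the genes of lipid export and transfer. Each runs 5′ to 3′ on the gene's strand from 250 bases before to 50 bases after the annotated start (RefSeq, GRCm38.p6). The windows are chr7:19699139-19699438 for Apoe, chr4:53159846-53160145 for Abca1 and chr2:164857659-164857958 for Pltp, all on the minus strand. Capitals mark a match with at most 3 mismatches to the DR4 motif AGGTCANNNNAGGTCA, which LXR and RXR pairs are known to bind, searched on both strands.
Apoe: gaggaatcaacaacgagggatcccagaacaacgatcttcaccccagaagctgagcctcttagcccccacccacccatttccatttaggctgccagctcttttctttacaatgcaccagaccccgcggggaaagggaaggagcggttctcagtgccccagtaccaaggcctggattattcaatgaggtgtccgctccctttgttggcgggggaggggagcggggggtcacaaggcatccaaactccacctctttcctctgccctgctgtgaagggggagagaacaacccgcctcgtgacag
Abca1: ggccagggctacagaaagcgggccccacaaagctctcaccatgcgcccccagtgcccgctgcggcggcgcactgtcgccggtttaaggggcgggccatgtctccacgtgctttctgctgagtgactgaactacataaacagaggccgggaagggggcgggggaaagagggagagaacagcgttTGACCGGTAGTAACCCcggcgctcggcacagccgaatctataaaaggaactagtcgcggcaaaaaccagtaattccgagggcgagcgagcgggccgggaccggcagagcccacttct
Pltp: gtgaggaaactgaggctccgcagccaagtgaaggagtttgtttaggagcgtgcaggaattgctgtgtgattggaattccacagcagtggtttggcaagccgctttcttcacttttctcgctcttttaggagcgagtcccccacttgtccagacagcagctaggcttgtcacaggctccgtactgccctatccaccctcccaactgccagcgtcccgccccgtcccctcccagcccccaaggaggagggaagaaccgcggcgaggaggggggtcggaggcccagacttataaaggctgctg
The Abca1 window held its best DR4 match on the opposite strand with 3 mismatches of 12 letters compared, starting 67 bases before the annotated start, and 21.9% of 32851 promoters of the same length hold as good a match. The best DR4 match had 4 mismatches in Apoe (76.9% of promoters hold as good a match) and 5 in Pltp (99.8%), so neither window carries capitals. For the DR1 motif AGGTCANAGGTCA, known for PPAR and RXR pairs, the best match among the 7 genes with a promoter in the table was in Cd36, with 2 mismatches (3.86% of promoters). The 7 were Apoe, Abca1, Pltp, Cd36, Lrp1, Trem2 and Pparg. Abcg1, Lpl and Fabp4 had no entry. The Cd36 window (chr5:17835847-17836146, minus strand) lies inside the gene and not at the 5′ end of its GENCODE coordinates, 17888801. A match is a description of the letters and not evidence of binding.

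Levels below are CPM, the deposited count of a gene scaled to a common library total. Total counts ran from 13412316 to 23782217 per library, and a count of 3, used as the floor, equalled 0.126 to 0.224 CPM. Fold changes are log2 values of edgeR's quasi-likelihood fit after TMM scaling, with the standard error (SE), and a gene was called at a Benjamini-Hochberg adjusted p under 0.05 over all genes tested. Labelled Sca1-positive replicates 2 and 3 entered every table with equal counts for 9 of the 9 genes, whereas replicate 1 of the age table and of the knockout table differed (0 of 9 equal). The 3 comparisons therefore share reference libraries and are not independent.

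Markers were read before the results, and some went against the labels. Ly6a was at 666.2 and 658.6 CPM in the libraries labelled Sca1-negative, against 13.8 and 10.03 CPM in labelled Sca1-positive replicates 2 and 3. It was at 768.5, 681.8 and 930.3 CPM in the knockouts and at 425.3 CPM in control 1. Ly6a is not listed in the age table. Every direction between the labelled Sca1 groups thus runs against what Ly6a shows. Pdgfra, the gene of the sorted receptor, was at 13.43 to 15.17 CPM in adult libraries and 235.2 to 279 CPM in perinatal ones. The 17 tested macrophage markers, all called higher in adult libraries, made up 2.76% to 3.13% of adult counts and 0.00269% to 0.00337% of perinatal counts. The 10 stromal markers made up 0.484% to 0.751% of adult counts and 7.5% to 10.4% of perinatal counts. Of these 10, 7 were called lower in adult libraries and 0 higher. Both marker counts stand beside 37.4% of all genes tested called higher and 39.7% called lower in that table.

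In adult cells all 10 genes of the set were higher than in perinatal labelled Sca1-positive cells, and in none did the groups overlap. The background in this table was high, since 77.1% of the 13757 genes tested were called, 37.4% higher and 39.7% lower. DESeq2 and an unadjusted edgeR p under 0.05 also took all 10 genes as higher, against 69.5% and 78.7% of all genes in either direction. The groups did not overlap in 81% of all genes. The median log2 fold change was 3.31 over the set and -0.06 over all genes tested. Age and sort gate differed together, so they cannot be told apart, and neither can more cells of a type and more RNA per cell in such sorted bulk samples. The part of the macrophage transcripts above in these differences was not tested.

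**Figure D1:**
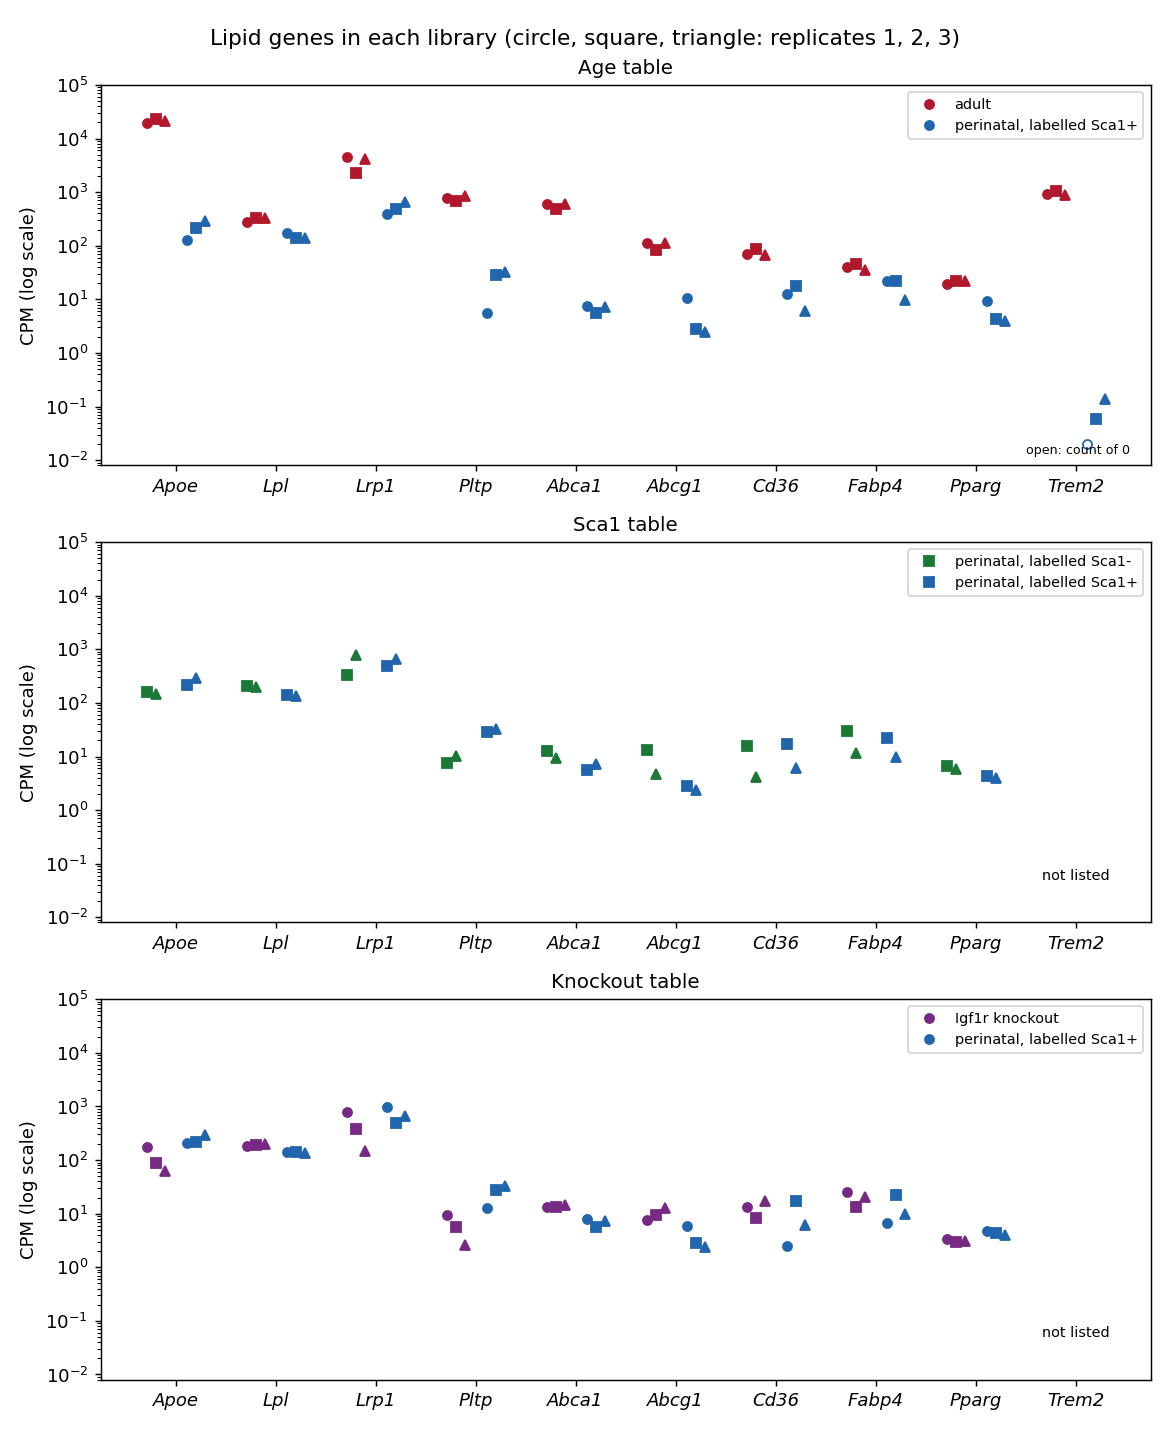
CPM (log axis) of each lipid gene in every library of the 3 tables, with circles, squares and triangles for replicates 1, 2 and 3 and an open symbol for a count of 0. In the age table the adult points lie above all perinatal points for every gene, from Apoe at 19280 to 23480 CPM against 127.7 to 288.9 CPM to Fabp4 at 35.86 to 46.53 CPM against 9.752 to 22.45 CPM.

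Apoe (ENSMUSG00000002985, GRCm38 chromosome 7, 19696109 to 19699188, minus strand) was at 19280, 23480 and 20890 CPM in adult libraries, against 127.7, 214.4 and 288.9 CPM in perinatal libraries. The lowest adult library held 1.93% of its counts on this single gene and the highest 2.35%. On the authors' TPM scale, which corrects for length, Apoe averaged 41160 ± 1887 in adult and 354 ± 144 in perinatal libraries (SD, n = 3 each). It ranked 1 of 16507 genes in adult cells and 519 in perinatal cells. The log2 fold change was 6.38 (SE 0.37, edgeR adjusted p = 4.70e-06).

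Lipoprotein lipase, which releases fatty acids from triglyceride-rich particles, showed a small difference in counts. Lpl (chromosome 8, 68880491 to 68907448, plus strand) was at 274.1, 328.3 and 336 CPM in adult libraries and 173.9, 139.8 and 137.2 CPM in perinatal libraries. The groups lay close but apart, with a log2 fold change of 0.79 (SE 0.15, edgeR adjusted p = 0.00182). Phospholipid transfer protein, which moves phospholipid between lipoproteins, differed far more. Pltp (chromosome 2, 164839518 to 164857711, minus strand) was at 774.2, 672.1 and 864.1 CPM in adult libraries, against 5.531, 28.05 and 32.16 CPM in perinatal libraries. Perinatal replicate 1 was the low one, and the log2 fold change was 4.86 (SE 0.62, edgeR adjusted p = 2.18e-04).

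The receptor LRP1, which takes up APOE-bearing particles among many ligands, gave a call that depended on the unit. Lrp1 (chromosome 10, 127538161 to 127621148, minus strand) was at 4493, 2312 and 4189 CPM in adult libraries and 387.1, 489.6 and 650.2 CPM in perinatal libraries, with no overlap. Its log2 fold change in counts was 2.58 (SE 0.33, edgeR adjusted p = 2.16e-04). The authors' TPM for the same libraries were 471.8, 221.7 and 440 in adult and 232.2, 312.8 and 414.6 in perinatal cells, and these ranges overlapped. With limma on log2(TPM + 1), a test chosen after seeing the data, the difference was 0.20 (adjusted p = 0.589).

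The number of Lrp1 counts behind each unit of TPM differed between the groups. There were 165, 177 and 128 Lrp1 counts per TPM in adult libraries, against 24.7, 27.1 and 22.7 in perinatal libraries. After the common shift between libraries this was a 7.23-fold difference, larger than in 99.92% of the 9294 genes compared, with a count minimum of 50. For Apoe the same figure was 1.01-fold and for Pltp 1-fold, and limma on TPM kept the other 9 genes of the set called higher in adult cells. Lrp1 was thus called higher in counts and not in TPM. For Lpl limma on TPM gave 1.29 (adjusted p = 6.97e-05), against 0.79 in counts.

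**Figure D2:**
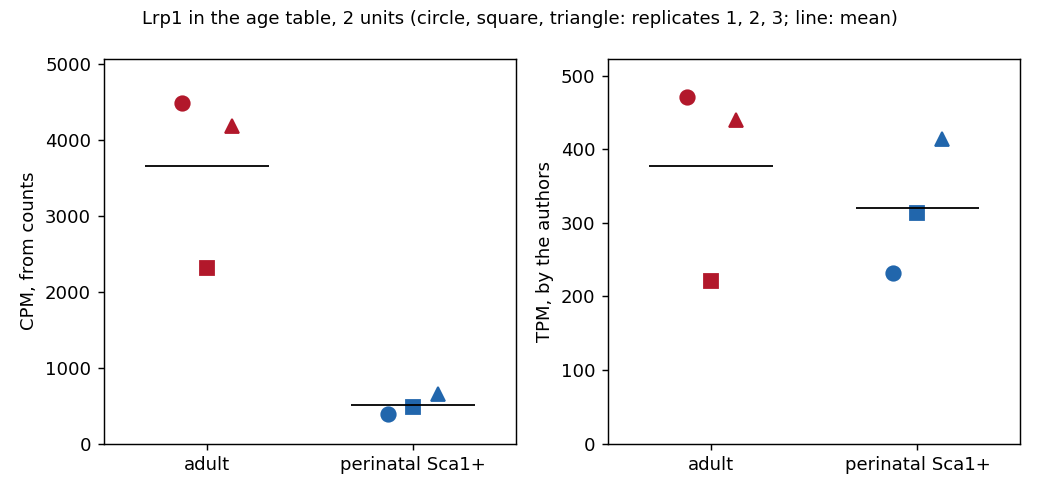
Lrp1 in the 6 libraries of the age table, as CPM from the deposited counts (left) and as the authors' TPM (right), with a line at each group mean. Adult points lie at 2312 to 4493 CPM above perinatal points at 387.1 to 650.2 CPM, whereas the TPM ranges of 221.7 to 471.8 and 232.2 to 414.6 overlap.

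Both sterol transporters were higher in adult cells. Abca1 (chromosome 4, 53030787 to 53159895, minus strand), which passes cholesterol to lipid-poor apolipoproteins, was at 609.7, 491.3 and 590.8 CPM in adult libraries and 7.352, 5.599 and 7.332 CPM in perinatal libraries. Its replicates were tight and its log2 fold change was 6.12 (SE 0.21, edgeR adjusted p = 6.99e-07). Abcg1 (chromosome 17, 31057675 to 31117988, plus strand), which passes cholesterol to mature HDL particles, was at 113.8, 83.94 and 111.6 CPM in adult libraries and 10.59, 2.828 and 2.421 CPM in perinatal libraries. Here perinatal replicate 1 was the high one, and the log2 fold change was 4.03 (SE 0.55, edgeR adjusted p = 3.04e-04).

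Trem2 (chromosome 17, 48346401 to 48354147, plus strand), a lipid-sensing receptor of macrophages and microglia, was below the floor of 3 counts in every perinatal library. Its counts were 15625, 18015 and 11999 in adult libraries, against 0, 1 and 2 in perinatal libraries. The ratio of summed counts, scaled to library totals, was 14900 (exact binomial 95% interval 5090 to 72100, counting error only), and the edgeR adjusted p was 4.76e-07. In TPM it ranked 67 of 16507 genes in adult cells. Tyrobp, the adaptor through which TREM2 signals, was at 439.7, 513.2 and 439.6 CPM in adult libraries and 0.9443, 1.328 and 2.628 CPM in perinatal libraries.

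The fatty acid carriers and the adipocyte regulator showed modest differences. Cd36 (chromosome 5, 17781690 to 17888801, minus strand), a scavenger receptor and fatty acid transporter, was at 71.6, 86 and 66.88 CPM in adult libraries and 12.41, 17.37 and 6.156 CPM in perinatal libraries (log2 fold change 2.37, SE 0.33, edgeR adjusted p = 3.53e-04). Fabp4 (chromosome 3, 10204088 to 10208576, minus strand), a cytosolic fatty acid carrier of adipocytes and macrophages, was at 40.46, 46.53 and 35.86 CPM in adult libraries and 21.92, 22.45 and 9.752 CPM in perinatal libraries. The Fabp4 difference was 0.91 (SE 0.29, edgeR adjusted p = 0.0224) and was no longer called without adult replicate 2 (0.87, edgeR adjusted p = 0.0714). On the authors' TPM it was larger, at 1.86 on the log2(TPM + 1) scale (limma adjusted p = 6.44e-04), and there were 3.76, 4.08 and 2.94 Fabp4 counts per TPM in adult libraries, against 5.76, 5.67 and 4.61 in perinatal libraries. Pparg (chromosome 6, 115360951 to 115490399, plus strand) was at 19.33, 21.68 and 21.55 CPM in adult libraries and 9.24, 4.271 and 3.942 CPM in perinatal libraries. All 3 adult values exceeded the highest perinatal one, with a log2 fold change of 1.57 (SE 0.33, edgeR adjusted p = 0.00284).

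Perinatal replicate 1 set the size of several of these differences without ending a call. Against that library alone the log2 fold change was 6.87 for Pltp, 3.04 for Abcg1 and 0.92 for Pparg, and without it 4.42 for Pltp, 5.04 for Abcg1 and 2.08 for Pparg. That library held 0.0426% of its counts on cartilage markers, against 0.593% and 0.703% in perinatal replicates 2 and 3. Osteoblast markers held 0.0363% of its counts, against 0.652% and 0.599%. The part of these transcripts was not tested.

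Within a group the 10 genes spanned a wide range of TPM. In adult cells the order ran from Apoe through Trem2 (1865 ± 101), Pltp (726 ± 123), Lrp1 (378 ± 136), Fabp4 (181 ± 15.5), Lpl (157 ± 17.7) and Abca1 (88.7 ± 12.6) to Cd36 (45.4 ± 4.13), Abcg1 (43.3 ± 8.73) and Pparg (20.6 ± 1.40; mean ± SD, n = 3). The place of Lrp1 is not firm in adult or in perinatal cells, since its counts per TPM were out of step between the groups as given above. The neighbours Fabp4 and Lpl, and Cd36 and Abcg1, differed by less than the sum of their SDs. In perinatal cells the order was Apoe, Lrp1 (320 ± 91.4), Lpl (63.4 ± 4.64), Fabp4 (51.9 ± 19.4), Pltp (18.0 ± 12.2), Cd36 (5.19 ± 2.64), Pparg (3.93 ± 1.59), Abcg1 (1.83 ± 1.48), Abca1 (0.832 ± 0.123) and Trem2 (0.169 ± 0.150). By the same measure Apoe and Lrp1 could not be separated there, nor Lpl and Fabp4, nor any neighbouring pair from Pltp to Abca1. The measure leaves out that both genes were read in the same libraries. Within each perinatal library Pparg exceeded Abcg1, at 5.758, 3.087 and 2.938 TPM against 3.527, 1.039 and 0.911. Abca1 held rank 1671 of 16507 genes in adult cells and rank 12550 in perinatal cells.

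Other genes of lipid handling were counted in lists around the set, to be read against the 37.4% of all genes called higher and 39.7% called lower. Of 15 lipoprotein receptor genes, 11 were called higher and 1 lower in adult cells (median log2 fold change 1.67). Stab1, a scavenger receptor of macrophages and sinusoids, averaged 2570 ± 642 CPM in adult cells but 2.43 ± 0.734 CPM in perinatal ones (SD, n = 3, as for the means that follow). The macrophage scavenger receptor Msr1 had 2935, 3490 and 1924 counts in adult libraries, against 7, 0 and 0 in perinatal libraries. Of 18 genes of sterol efflux and LXR signalling, 14 were higher and 3 lower (median 1.48). Among them Lipa, the lysosomal lipase that frees cholesterol from its esters, averaged 645 ± 52.4 CPM in adult cells and 35.8 ± 2.26 CPM in perinatal cells. Nceh1, a cholesteryl ester hydrolase, averaged 366 ± 27.2 CPM in adult cells and 6.80 ± 2.03 CPM in perinatal cells. Clu, a secreted apolipoprotein, went the other way at 0.769 ± 0.0849 CPM in adult cells and 179 ± 64.6 CPM in perinatal cells.

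Cholesterol synthesis and fatty acid handling were mixed. Of 21 genes of cholesterol synthesis, 6 were called higher and 6 lower in adult cells (median -0.09), although limma on TPM called 10 higher and 4 lower. Fdft1, which makes squalene, averaged 46.3 ± 3.13 CPM in adult cells, against 108 ± 27.9 CPM in perinatal cells. Of 24 genes of fatty acid uptake and triglyceride handling, 11 were higher and 6 lower (median 0.16). In neither list did the share called exceed the 77.1% over all genes. Fabp5, a fatty acid carrier related to Fabp4, averaged 833 ± 81.3 CPM in adult cells and 45.9 ± 2.34 CPM in perinatal cells. Angptl4, a secreted inhibitor of lipoprotein lipase, averaged 22.0 ± 3.05 CPM in adult cells and 306 ± 86.9 CPM in perinatal cells. Gpihbp1, which anchors lipoprotein lipase to capillary endothelium, had 0 counts in all 3 adult libraries and 173, 320 and 120 in perinatal libraries.

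Adipocyte genes outside the set differed in both directions. Of 20 mature adipocyte genes 13 were listed and 9 tested, with 2 called higher and 5 lower in adult cells (median -1.52), beside 37.4% higher and 39.7% lower over all genes. Adipoq, which encodes the adipocyte hormone adiponectin, had 0, 0 and 1 counts in adult libraries and 16, 161 and 199 in perinatal libraries. Plin1, which coats adipocyte lipid droplets, had 0 counts in every adult library and 5, 1 and 2 in perinatal libraries, and was not tested. Cebpa was an exception at 264.4, 257.7 and 292.4 CPM in adult libraries and 5.801, 6.464 and 7.677 CPM in perinatal libraries. It encodes a transcription factor of adipocytes and of myeloid cells. With Cebpa included, the whole list made up 0.0275% to 0.0311% of adult counts and 0.00513% to 0.0114% of perinatal counts. Of 13 adipogenic regulators, 3 were higher and 8 lower (median -3.63). The preadipocyte factor Dlk1 averaged 0.346 ± 0.202 CPM in adult cells and 1251 ± 150 CPM in perinatal cells, and Zfp423, a preadipocyte determination factor, 1.40 ± 0.421 CPM in adult cells, against 45.4 ± 5.07 CPM in perinatal cells.

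Genes that act with Trem2 or mark lipid-laden macrophages were higher in 13 of 15 cases and lower in 2 (median 4.64). Gpnmb, a lysosomal glycoprotein of lipid-laden macrophages, averaged 5202 ± 595 CPM in adult cells and 18.0 ± 2.70 CPM in perinatal cells. Syk, the kinase downstream of Tyrobp, averaged 296 ± 21.4 CPM in adult cells and 1.76 ± 0.962 CPM in perinatal cells. The list overlaps in function with the macrophage markers above, whose defining members were near 0 in perinatal libraries: Adgre1 had 15724, 17895 and 11812 counts in adult libraries, against 2, 4 and 5.

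Likeness was read over the 6 age libraries as Pearson's r of log2(CPM + 1). The genes most like Apoe were Ptpn6 (0.9999), Amdhd2, Rfx7, Sgpl1 and Tk2, but 3259 of 9658 genes exceeded 0.95. Those most like Pparg were Cyld (0.9983), Ptpra, Nras, Rab21 and Hras, with 1029 genes over 0.95. With 2 separated groups such values mainly follow the difference between groups, so the rank says little about any single gene.

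**Figure D3:**
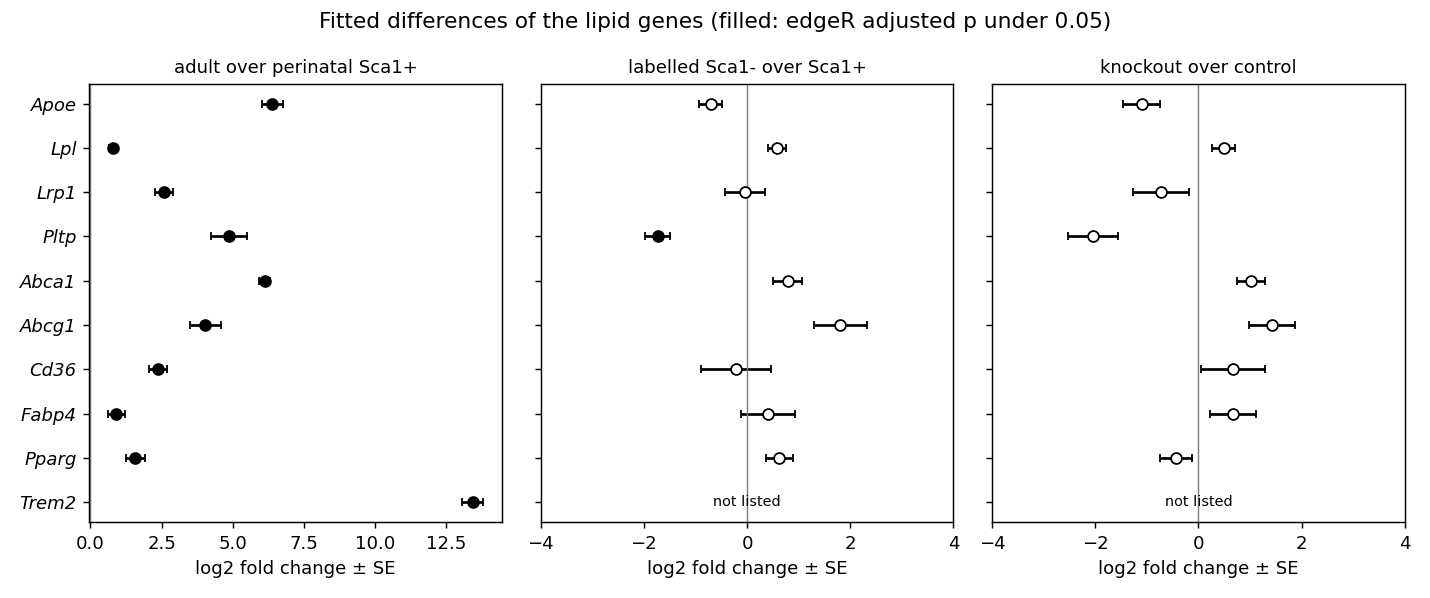
Log2 fold change ± SE of each lipid gene in the age, Sca1 and knockout tables, filled where the edgeR adjusted p was under 0.05; the horizontal scale of the age panel differs from the other panels. All 10 genes are filled in the age panel, from 0.79 for Lpl to Trem2, whose fitted value depends on counts of 0 to 2; only Pltp (-1.74) is filled in the Sca1 panel and none in the knockout panel.

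Between the labelled Sca1 groups 1 of the 9 genes passed the test. Pltp was at 7.476 and 10.26 CPM in labelled Sca1-negative libraries, against 28.06 and 32.17 CPM in labelled Sca1-positive libraries. The groups were well apart, with a log2 fold change of -1.74 (SE 0.23, edgeR adjusted p = 0.0127). Over the whole Sca1 table, calls fell on 4.41% of the 13529 genes tested, 2.79% lower. The set had 0 genes called higher, against 1.63% over all genes. At an unadjusted p under 0.05 it had 3 higher and 2 lower (18.9% of all genes in either direction), and DESeq2 called 1 higher and 1 lower (7.06%). Groups of 2 libraries each did not overlap in 6 of the 9 genes, 4 higher and 2 lower, against 49.8% of all genes. The median log2 fold change was 0.40 over the set and 0.01 over all genes.

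Apoe was at 157.1 and 145.1 CPM in labelled Sca1-negative libraries and at 214.5 and 289 CPM in labelled Sca1-positive libraries. The difference of -0.70 (SE 0.22, 95% interval -1.24 to -0.17) was not called (edgeR adjusted p = 0.150). Both transporters lay on the other side. Abca1 was at 12.46 and 9.252 CPM in labelled Sca1-negative libraries, against 5.6 and 7.334 CPM in labelled Sca1-positive libraries (log2 fold change 0.79, edgeR adjusted p = 0.207). Abcg1 was at 13.12 and 4.77 CPM in labelled Sca1-negative libraries, against 2.829 and 2.422 CPM in labelled Sca1-positive libraries. Its log2 fold change of 1.81 (SE 0.51) missed the threshold with edgeR (adjusted p = 0.116). It passed with DESeq2 (adjusted p = 0.00973) and with the replicate number as a block in edgeR (1.68, adjusted p = 0.0108).

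Lpl was at 210.6 and 193.8 CPM in labelled Sca1-negative libraries and 139.8 and 137.3 CPM in labelled Sca1-positive libraries (log2 fold change 0.58, edgeR adjusted p = 0.142). On the authors' TPM it was at 68.33 and 82.8 in labelled Sca1-negative libraries, against 66.17 and 66.03 in labelled Sca1-positive libraries. In replicate 2 the Lpl difference seen in counts was thus nearly absent in TPM. Pparg was at 6.623 and 5.782 CPM in labelled Sca1-negative libraries, against 4.272 and 3.944 CPM in labelled Sca1-positive libraries (0.63, edgeR adjusted p = 0.270). Neither was called although neither overlapped. Lrp1 was at 324.7 and 768 CPM in labelled Sca1-negative libraries, against 489.8 and 650.4 CPM in labelled Sca1-positive libraries, with overlapping groups (-0.04, edgeR adjusted p = 0.970).

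Cd36 and Fabp4, which have endothelial as well as adipocyte and macrophage expression, split by replicate number rather than by label. Cd36 was at 15.48 and 4.192 CPM in labelled Sca1-negative replicates 2 and 3, against 17.38 and 6.158 CPM in labelled Sca1-positive replicates 2 and 3. Fabp4 was at 29.31 and 11.78 CPM in labelled Sca1-negative libraries, against 22.46 and 9.755 CPM in labelled Sca1-positive libraries, so in both genes replicate 2 was the high one. The endothelial gene Cldn5, picked after its values were seen, showed the same order with 25.05 and 12.72 CPM in labelled Sca1-negative libraries and 30.48 and 16.33 CPM in labelled Sca1-positive libraries. The 12 endothelial markers summed to 0.025% and 0.0295% of counts in labelled Sca1-negative libraries and 0.0293% and 0.0252% in labelled Sca1-positive libraries, which is not that order. Neither gene was called (edgeR adjusted p = 0.901 for Cd36 and 0.741 for Fabp4).

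Several calls changed when 1 library was left out. Without labelled Sca1-negative replicate 3, edgeR called Apoe (-0.62, adjusted p = 0.0222), Lpl (0.67, adjusted p = 0.00172), Lrp1 (-0.75, adjusted p = 0.00631), Abca1 (1.02, adjusted p = 0.00374) and Abcg1 (2.38, adjusted p = 2.61e-06), and 4835 genes in all. Without labelled Sca1-negative replicate 2 it called Apoe (-0.79, adjusted p = 0.0112) and Lpl (0.49, adjusted p = 0.0205), and 2257 genes in all. Apoe and Lpl were thus called without either labelled Sca1-negative library, whereas without replicate 2 the log2 fold change was 0.44 for Lrp1 and 0.86 for Abcg1, neither called. Without labelled Sca1-positive replicate 2 it called Abcg1 (1.91, adjusted p = 0.0268). Pltp was called lower in all of these fits. A group of 1 library was assumed to vary like the other. With every library kept, 597 of 13529 genes were called (4.41%). The fits without a labelled Sca1-negative library called many more over the whole table, so their calls were not particular to the set.

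Few listed genes around the set were called in this table, where 4.41% of all genes were. Mature adipocyte genes gave 2 lower and 0 higher of 10 tested (median -0.88). Adipoq had 40 and 17 counts in labelled Sca1-negative libraries, against 161 and 199 in labelled Sca1-positive libraries (log2 fold change -2.53, SE 0.43, edgeR adjusted p = 0.0278). Car3, a carbonic anhydrase abundant in adipocytes, had 337 and 200 counts in labelled Sca1-negative libraries, against 1438 and 1142 in labelled Sca1-positive libraries. Plin1 lay the other way, at 10 and 12 counts in labelled Sca1-negative libraries against 1 and 2, and was not tested with edgeR. One gene each was lower among 13 lipoprotein receptor genes (Lsr), 17 sterol efflux and LXR genes (Clu), 21 cholesterol synthesis genes (Cyp51) and 24 fatty acid genes (Angptl4), and 0 were higher. At an unadjusted p under 0.05, cholesterol synthesis genes had 12 lower and 0 higher of 21 (median -0.66), and DESeq2 called 5 lower. Lipoprotein receptor genes had 5 lower and 0 higher, with 3 lower by DESeq2. Sterol efflux and LXR genes had 2 higher and 3 lower (DESeq2 1 lower). Fatty acid genes had 4 higher and 2 lower (DESeq2 1 higher and 2 lower). Over all genes 18.9% passed at an unadjusted p under 0.05 and 7.06% with DESeq2, in either direction. The 13 adipogenic regulators gave 0 calls with edgeR, 2 higher and 2 lower at an unadjusted p under 0.05, and 1 higher with DESeq2. In the Trem2 list Syk was higher and Plcg2 lower among 10 tested.

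Cartilage and bone transcripts also differed between these libraries. All 10 cartilage markers were called lower in labelled Sca1-negative libraries, where they made up 0.0339% and 0.045% of counts, against 0.593% and 0.703% in labelled Sca1-positive libraries. Of 10 osteoblast markers 9 were lower. Erythroid markers had 0 calls among 9 with edgeR, 4 lower at an unadjusted p under 0.05 and 3 lower with DESeq2, and made up 0.0318% and 0.096% of counts in labelled Sca1-negative libraries, against 0.13% and 0.167% in labelled Sca1-positive libraries. Their part in the Pltp and Adipoq differences was not tested.

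In the knockout table none of the 9 genes passed edgeR's test, where 5 of 13590 genes were called (0.0368%), all lower. At an unadjusted p under 0.05, 2 genes of the set were higher and 2 lower (21.8% of all genes in either direction), and DESeq2 called 2 higher and 1 lower (6.97% of all genes). The groups did not overlap for 6 genes, 3 higher and 3 lower in knockouts, against 27.9% of all genes. The median log2 fold change was 0.49 over the set and -0.03 over all genes. Igf1r itself was at 8.203, 4.216 and 3.238 CPM in knockouts, against 29.54, 31.65 and 30.74 CPM in controls. It did not pass with edgeR (log2 fold change -2.55, adjusted p = 0.0816) and passed with DESeq2 (adjusted p = 3.95e-09).

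**Figure D4:**
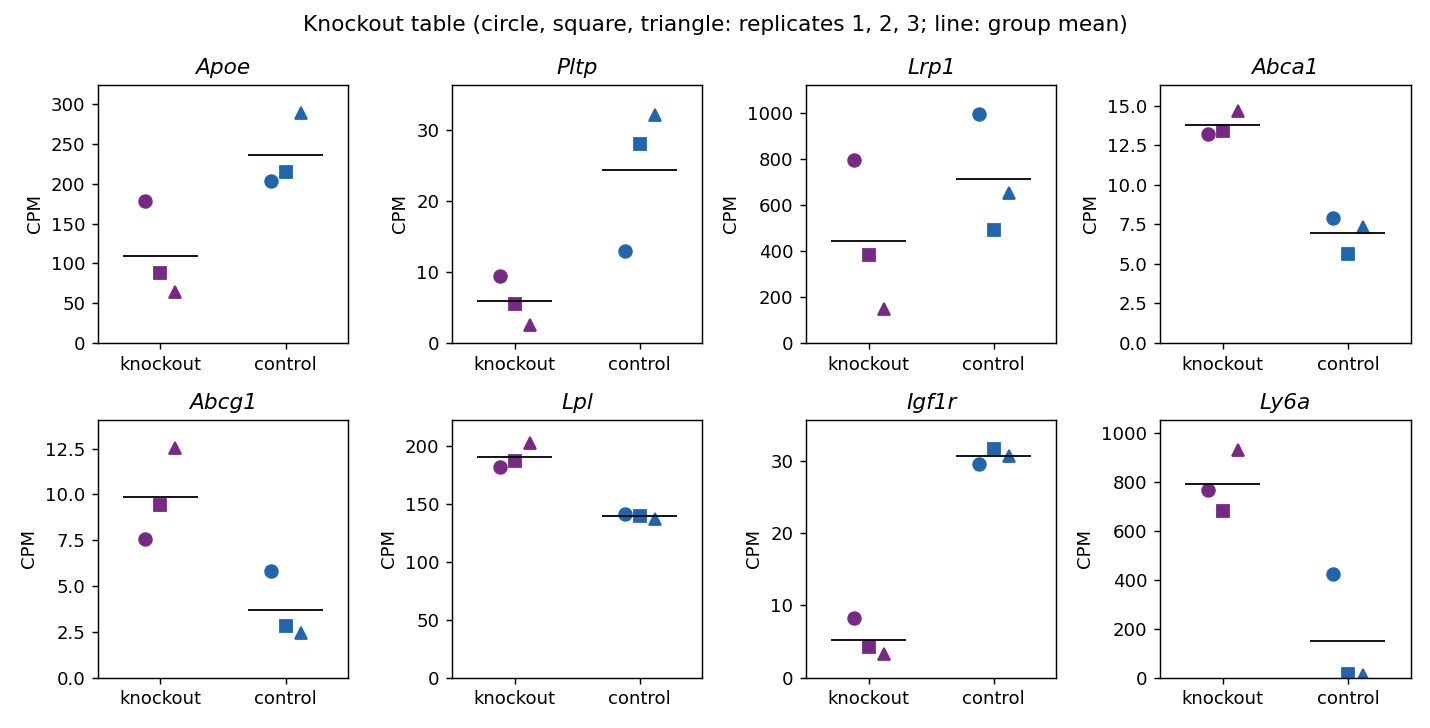
CPM of 6 lipid genes, Igf1r and Ly6a in the knockout table, with circles, squares and triangles for replicates 1, 2 and 3 and a line at each group mean. Apoe and Pltp lie lower and Abca1, Abcg1 and Lpl higher in all 3 knockouts than in any control, while Lrp1 overlaps, and control 1 stands apart from controls 2 and 3 in Ly6a at 425.3 CPM against 13.8 and 10.04 CPM.

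Apoe was at 178, 87.86 and 63.49 CPM in knockouts, against 204, 214.6 and 289.2 CPM in controls. Knockout 1 lay close to the lowest control, and the log2 fold change was -1.10 (SE 0.36, edgeR adjusted p = 0.182, DESeq2 adjusted p = 0.0519). Pltp was at 9.42, 5.534 and 2.565 CPM in knockouts, against 12.97, 28.07 and 32.19 CPM in controls. Its log2 fold change of -2.04 (SE 0.48) had an edgeR adjusted p of 0.176 and a DESeq2 adjusted p of 0.00258. Lrp1 was at 796.8, 383 and 147.3 CPM in knockouts, against 996.7, 489.9 and 650.8 CPM in controls, and the groups overlapped (-0.72, edgeR adjusted p = 0.414). In Apoe, Pltp and Lrp1 alike knockout 1 was the highest knockout and knockout 3 the lowest, an order that 36.8% of all genes tested also had.

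The transporters lay on the opposite side of Apoe. Abca1 was at 13.25, 13.44 and 14.67 CPM in knockouts, against 7.891, 5.602 and 7.338 CPM in controls (log2 fold change 1.02, SE 0.27, edgeR adjusted p = 0.177, DESeq2 adjusted p = 0.0345). Abcg1 was at 7.572, 9.434 and 12.53 CPM in knockouts, against 5.819, 2.83 and 2.423 CPM in controls (1.43, SE 0.44, edgeR adjusted p = 0.181, DESeq2 adjusted p = 0.0485). The ratio of Abca1 to Apoe counts was 0.0744, 0.153 and 0.231 in knockouts and 0.0387, 0.0261 and 0.0254 in controls, with no overlap. In the knockout and Sca1 tables Abca1 lay higher and Apoe lower without overlap. A ratio without overlap follows from this and adds no further result. In the Sca1 table the same ratio was 0.0793 and 0.0638 in labelled Sca1-negative libraries, against 0.0261 and 0.0254 in the shared labelled Sca1-positive libraries. In adult cells it was 0.0316, 0.0209 and 0.0283, against 0.0576, 0.0261 and 0.0254 in perinatal cells, where the groups overlapped.

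Lpl was at 182.5, 187.7 and 203.3 CPM in knockouts, against 141.6, 139.9 and 137.3 CPM in controls (log2 fold change 0.49, SE 0.22, edgeR adjusted p = 0.234). The log2 values that the authors deposited under a TPM heading did not show this, at 6.07, 6.06 and 5.88 in knockouts and 6.16, 6.08 and 6.06 in controls. For Abca1 they pointed the same way as the counts, at 1.39, 1.30 and 1.41 in knockouts and 0.95, 0.82 and 0.88 in controls. For Apoe, Pltp, Abcg1 and Pparg they did so too, without overlap. Pparg was at 3.38, 3.004 and 3.112 CPM in knockouts, against 4.784, 4.274 and 3.946 CPM in controls. These low groups did not overlap (-0.43, SE 0.31, edgeR adjusted p = 0.389).

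Cd36 and Fabp4 varied more within the controls than between the groups. Cd36 was at 13.43, 8.222 and 17.53 CPM in knockouts, against 2.515, 17.38 and 6.161 CPM in controls (0.67, 95% interval -0.74 to 2.08, edgeR adjusted p = 0.493). Fabp4 was at 25.37, 13.6 and 20.69 CPM in knockouts, against 6.559, 22.47 and 9.761 CPM in controls (0.68, 95% interval -0.34 to 1.69, edgeR adjusted p = 0.351). In both genes control 2 lay within the knockout range. In the authors' log2 values Cd36 was at 2.36, 1.43 and 2.36 in knockouts, against 2.24, 2.93 and 2.61 in controls. Fabp4 was at 5.85, 4.84 and 5.45 in knockouts, against 5.42, 5.91 and 5.58 in controls. By these values neither gene was higher in the knockouts as a group.

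Calls in the knockout table changed when 1 library was left out. Without knockout 1, edgeR called Apoe (-1.57, adjusted p = 0.0228), Pltp (-2.51, adjusted p = 0.0239), Abca1 (1.09, adjusted p = 0.0370) and Abcg1 (1.62, adjusted p = 0.0451). It called 3003 genes in all, against 5 of 13590 (0.0368%) with every library kept. The calls in this fit were thus not particular to the set. Controls 2 and 3 held 0.593% and 0.703% of their counts on cartilage markers, against 0.048% in control 1 and 0.0247% to 0.0435% in the knockouts. Against control 1 alone, which had the Ly6a level nearest to the knockouts, the log2 fold changes were -0.99 for Apoe, -1.25 for Pltp, 0.74 for Abca1 and 0.71 for Abcg1. None of these 4 was called, nor was any other gene of the table, so with 1 control library this fit decides nothing about them.

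Erythroid transcripts had a lower share of counts in every knockout than in any control. Osteoblast and cartilage transcripts were low in control 1 as well as in the knockouts, so their shares did not simply follow the knockout label. Of the 5 genes called lower, 4 were haemoglobin genes (Hba-a1, Hba-a2, Hbb-bt and Hbb-bs), among 9 tested erythroid markers with 0 higher. Copies of each globin are nearly identical, so the split of reads between them is uncertain. The erythroid markers made up 0.0249%, 0.0157% and 0.0169% of counts in knockouts, against 0.124%, 0.13% and 0.167% in controls, so here control 1 lay with the other controls. Of 9 tested osteoblast markers 0 were called with edgeR, 8 were lower at an unadjusted p under 0.05 and 7 were lower with DESeq2 (median -3.30). They made up 0.0307%, 0.0138% and 0.0248% of counts in knockouts, against 0.0106%, 0.653% and 0.599% in controls, where control 1 lay below the knockouts. All 10 cartilage markers were lower at an unadjusted p under 0.05 and with DESeq2 (median -4.99), and 0 were called with edgeR. They made up 0.0435%, 0.0247% and 0.0247% of counts in knockouts, against 0.048%, 0.593% and 0.703% in controls, where control 1 lay close to the knockouts. The part of the erythroid, osteoblast and cartilage transcripts in the differences of Apoe, Pltp, Abca1 and Abcg1 was not tested.

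The lipid and adipocyte lists around the set gave 0 calls with edgeR in the knockout table. Over all genes 21.8% passed at an unadjusted p under 0.05 and 6.97% with DESeq2, in either direction. At an unadjusted p under 0.05, cholesterol synthesis genes had 10 lower and 0 higher of 21 (median -0.84), and DESeq2 called 9 lower. Fdps, which makes farnesyl pyrophosphate, averaged 86.9 ± 11.4 CPM in knockouts and 184 ± 72.9 CPM in controls (SD, n = 3 each). The cholesterol synthesis genes made up 0.0635%, 0.095% and 0.114% of counts in knockouts, against 0.0935%, 0.168% and 0.152% in controls. Control 1 thus lay within the knockout range, and the lower level did not simply follow the knockout label. Lipoprotein receptor genes had 3 lower of 12 at an unadjusted p and 2 with DESeq2. Sterol efflux and LXR genes had 2 higher and 3 lower of 17 at an unadjusted p and 1 lower with DESeq2. Fatty acid genes had 3 higher and 7 lower of 24, and DESeq2 called 2 each way. Mature adipocyte genes had 3 lower of 9 and 2 with DESeq2, adipogenic regulators 1 lower of 13 and 0 with DESeq2, and the Trem2 list 2 higher and 1 lower of 10 and 1 lower with DESeq2.

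Over the 6 libraries of the knockout table the genes most like Apoe were Tcf19 (Pearson's r of log2(CPM + 1) 0.9984), Srebf2, S1pr2, Mmp11 and P3h1, with 386 of 8579 genes over 0.95. Srebf2 encodes the transcription factor that drives cholesterol synthesis and uptake. Among those most like Pparg were Mxd3 (0.9789), Polr2e, Nbas and Prmt2, with 16 genes over 0.95. These libraries fall into 2 groups and share sequencing depth differences, so the values are descriptions only.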

How the data were processed

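PolyA RNA of 11 sorted samples in 4 groups was analysed from 3 deposited tables, each fitted by itself. Per the file headers the tables hold raw counts per gene for each library, TPM computed by the authors in the age and Sca1 tables, and the authors' log2 fold change and adjusted p-value per gene, which are not used here. The deposited knockout columns headed TPM hold values on a log2 scale, judged from the values, and entered no test. Per the submitters' processing notes the tools included Trimmomatic 0.32 and DESeq2, with mm10 as genome build. Which aligner, counter, annotation and strand mode were used is not given in the sources, so reads of overlapping or antisense genes may not be told apart.

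Genes were filtered with filterByExpr, scaled with TMM factors (0.898 to 1.13) and tested with edgeR 4.0.16 in R 4.3.3 (glmQLFit robust, glmQLFTest) without covariates. P-values were adjusted by Benjamini-Hochberg across every gene tested in a table. The SE is the log2 fold change over the square root of F. The fit was tested on simulated data for each table. Alternatives were DESeq2 1.42.0, its size factors in edgeR, no low count filter, leaving out genes at 0 in a whole group, the replicate number as a block, leaving out each library and using the replicate 1 reference library alone. limma 3.58.1 on log2 of TPM with a pseudocount of 1 was added after seeing the data. Gene coordinates are from GENCODE M21 (GRCm38).

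The members and lists were chosen with earlier results of these data known. Named list genes were up to 3 called members with the smallest adjusted p, or the 2 most abundant where none was called, and likeness was ranked among genes with a mean of at least 10 CPM. Gpihbp1, Cldn5, Adipoq, Plin1, Tyrobp, Hbb-bs and Cebpa in tables where that rule did not take them, and all marker genes of the sort gates, were named after their values were seen. Some genes that the rule for named list genes or for likeness takes are not reported here.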

Additional observations from a re-analysis of the deposited data

How the results depend on the processing

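The 10 genes called higher in adult cells numbered 10 under every alternative run except 9 without adult replicate 2 (Fabp4 lost) and 9 with limma on TPM (Lrp1 at 0.20, adjusted p = 0.589). For the Sca1 label 597 genes were called; DESeq2 called 1007, and the fit with the replicate number as a block called 1369 genes. Both called 1 gene of the set higher, Abcg1, and the block added no other call to the set in any table. Leaving out a library gave 484 to 4835 genes, with 0 to 3 genes of the set higher and 1 to 3 lower; the highest counts came without labelled Sca1-negative replicate 3, which leaves 1 library assumed to vary like the other group. In the same fits Lrp1 ranged from -0.75 to 0.44, Fabp4 from -0.45 to 1.10 and Cd36 from -1.49 to 0.71, so their signs reversed. Reversals were 0.44 and -0.45 (Lrp1, Fabp4) without labelled Sca1-negative replicate 2, 0.20 and -0.07 (the same genes) without labelled Sca1-positive replicate 3, and for Cd36 0.45 without labelled Sca1-negative replicate 3 and 0.71 without labelled Sca1-positive replicate 2. For the knockout 5 genes were called; DESeq2 called 999, with 2 genes of the set higher and 1 lower, while the replicate block and the fit against control 1 alone called 0 genes. Leaving out a library gave 0 to 3003 genes, 306 without control 1, with 0 to 2 genes of the set higher and 0 to 2 lower. The cause of these shifts was not tested. Correlations of deviations between same-numbered libraries were -0.0435, -0.0232 and 0.245 for age, 0.347 for Sca1, and 0.263, 0.11 and 0.0999 for the knockout. They were thus mixed for age and positive in the other tables, although knockout 3 and control 2 also reached 0.3. With 2 libraries a group the Sca1 table gives only a single value, which cannot decide on pairs. The main fits did not take the numbers as pairs, and the fits with the block are given above. With 2 or 3 libraries a group, genes of a few CPM such as Pparg, Abcg1 and Abca1 rest on 35 to 349 counts in perinatal and knockout libraries.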
